A study of Mus musculus with 6 samples.

Results

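The S100 calcium-binding proteins of mouse skin were examined through 10 genes, out of 21959 genes in the deposited expression table. The members were taken by symbol: S100a1, S100a3, S100a4, S100a6, S100a8, S100a9, S100a10, S100a14, S100a16 and S100b. They were grouped because members of this family are used as markers of muscle, hair, keratinocytes, leukocytes, fat and nerve sheath, all of which full-thickness skin can hold. The table listed 18 S100 genes in all, and the remaining 8 are described after the members.

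RNA was sequenced from the full-thickness dorsal skin of male C57BL/6 mice aged 7 weeks, shaved on the back while the follicles were in telogen, the resting phase of the hair cycle. In the vehicle group, 3 mice received 30% dipropylene glycol in 70% water on the skin. In the rebamipide group, 3 mice received 3% rebamipide, a drug first made for gastric ulcer. Both treatments were given once daily for 7 days, in a cohort of mice set apart for the period before hair regrowth, and the comparison asked how the skin transcriptome differed between rebamipide and vehicle at that time.

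S100 proteins are small calcium sensors that carry a pair of EF-hand motifs, mostly form dimers, and bind target proteins once calcium opens their binding surface. Inside cells they act on the cytoskeleton, calcium pumps and annexins, and some, above all S100A8 and S100A9, are released and signal through receptors such as TLR4 and RAGE. In skin they are known from separate compartments: S100A3 from the hair cuticle, S100A14 and S100A16 from epithelium, S100A8 and S100A9 from neutrophils and stressed keratinocytes, S100A4 and S100A6 from stromal cells, and S100B from Schwann cells and fat.

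Each vehicle library held between 38676018 and 39915276 counts, and each rebamipide library between 32709801 and 34706852. Levels are given as CPM, read counts scaled by library size, after TMM normalization, which sets the bulk of genes level between libraries, and fold changes, standard errors (SE) and adjusted p-values are from edgeR over 14875 genes. The rebamipide 3 library stood apart from its label as skin, since it held 0 counts of Krt14 and 4 counts of Krt5, the keratin pair of the basal epidermis, where no vehicle library held under 26099 of the first or 50427 of the second. The vehicle libraries also differed in hair. The summed level of 10 hair shaft keratins was 6933 and 3178 CPM in vehicle 1 and 2 and 44.3 CPM in vehicle 3. Which of these levels goes with the telogen stage was not tested. Mitochondrial genes took 2.59% to 5.36% of counts in vehicle and 13.3% to 22.0% in rebamipide. The part of these differences in the results was not tested, and the fold changes of the S100 genes tested and of the partners named are also given without rebamipide 3. In bulk skin, fewer cells of a type and less RNA per cell cannot be told apart.

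All 10 members passed the filter on low counts and were tested. S100a1 and S100b rose, and S100a16 and S100a8 fell, at an adjusted p under 0.05 (edgeR quasi-likelihood test, Benjamini-Hochberg adjustment). The 4 calls can be read against a background of 20.6% of all tested genes called in either direction, 14.1% higher and 6.51% lower. The groups did not overlap for 2 members that were higher and 4 that were lower in rebamipide, where 24.5% of all genes lay apart upwards and 24% downwards. The median log2 fold change of the members was -1.31, against -0.17 over all genes. Summed over the members, the level was 2009, 1323 and 1103 CPM in vehicle 1, 2 and 3 and 887, 721 and 676 CPM in rebamipide 1, 2 and 3, so every rebamipide library lay below every vehicle library. Without rebamipide 3 the 2 rises were still called and 0 falls were called by edgeR, while 6 members had an unadjusted p under 0.05 and DESeq2 called 4 falls. Over all genes of that edgeR fit, 1012 were called higher and 382 lower of 15327, and 4665 had an unadjusted p under 0.05. DESeq2 called 1875 lower of 15728. With vehicle 2 or with rebamipide 2 left out, edgeR called 0 members, 4 had an unadjusted p under 0.05, and DESeq2 called 5 and 4. Over all genes edgeR then called 0 of 14964 and 1 of 15335, with 4116 and 4062 at an unadjusted p under 0.05. DESeq2 called 4785 of 15962 and 3450 of 16064.

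**Figure D1:**
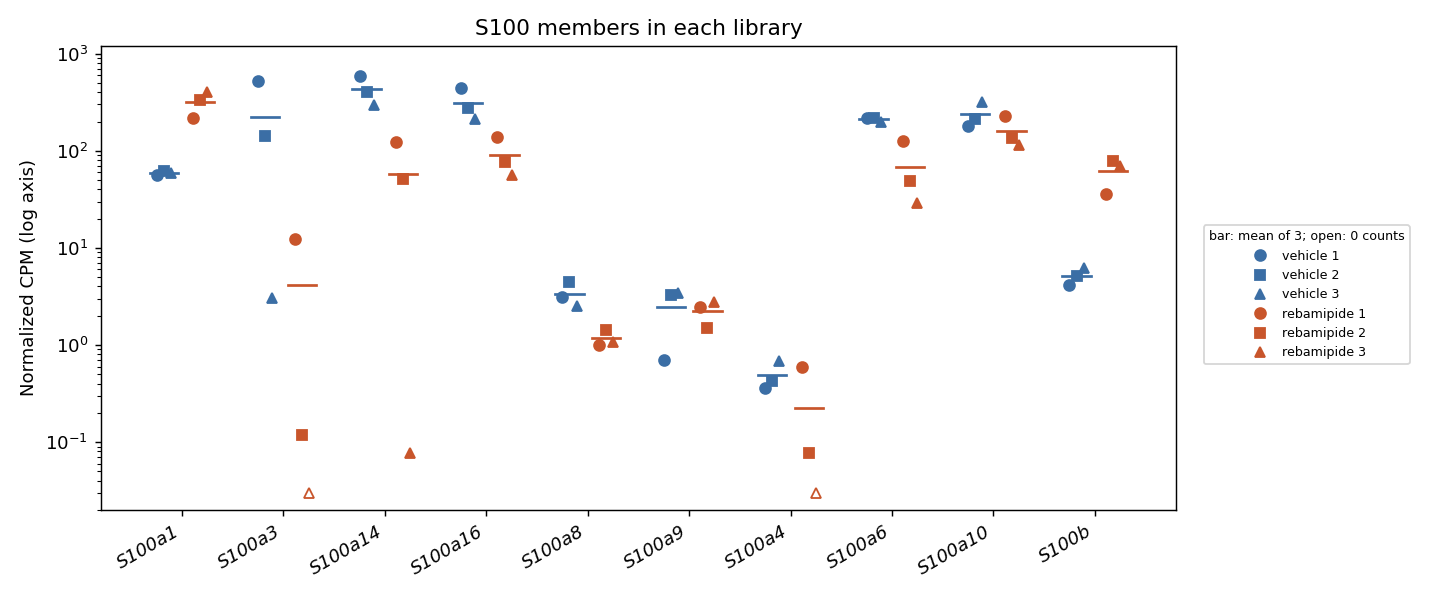
Normalized CPM on a log axis for each S100 member, with vehicle libraries in blue, rebamipide libraries in orange, a symbol for each of the 3 libraries of a group and a bar at the group mean; open symbols stand for 0 counts. The S100a1 and S100b points of rebamipide all lie above those of vehicle, and S100a14 in rebamipide runs from 122 CPM down to 0.0763 CPM.

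The first of the risers was S100a1 (ENSMUSG00000044080, chromosome 3, 90418341 to 90421699, minus strand). S100A1 is best known in heart and skeletal muscle, where it binds the ryanodine receptor and the calcium pump of the sarcoplasmic reticulum. S100a1 measured 55.7, 61.6 and 59.1 CPM in vehicle 1, 2 and 3 and 217, 329.8 and 402 CPM in rebamipide 1, 2 and 3. The 3 vehicle values lay within a 1.11-fold range, and every rebamipide value was far above them. The mean went from 58.8 ± 2.96 to 316 ± 93.3 CPM (SD, n = 3 each), 5.38-fold higher, and the log2 fold change was 2.43 (SE 0.28, edgeR adjusted p = 0.00939). Without rebamipide 3 it was 2.23 (edgeR adjusted p = 0.0219). S100a1 lost its call without vehicle 2 (edgeR adjusted p = 0.0747) and without rebamipide 2 (edgeR adjusted p = 0.0573), at log2 fold changes of 2.43 and 2.40.

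S100a1 was set beside lists of muscle genes. The summed level of 12 fast skeletal muscle genes, led by Acta1, Myh4 and Tnnt3, was 5796, 23908 and 28636 CPM in vehicle and 36803, 7748 and 295 CPM in rebamipide. This list spread 4.94-fold among the vehicle libraries, where S100a1 barely moved, and it was lowest in rebamipide 3, where S100a1 was highest. Of the 11 fast muscle genes tested, edgeR called 0, with 0 at an unadjusted p under 0.05 and 0 called by DESeq2. The 5 slow muscle genes, led by Myh7, summed to 7.55, 12.8 and 1.80 CPM in vehicle and 256, 118 and 5.99 CPM in rebamipide. Their median log2 fold change was 6.29, with 3 called higher by edgeR and 4 by DESeq2, and the mean of their log2 CPM was higher in every rebamipide library, while their sum in rebamipide 3 lay within the vehicle range. The part of muscle in the S100a1 rise was not tested.

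The marker lists whose profile lay nearest to S100a1 were those of other tissues. Likeness was the root mean square difference between log2 CPM profiles, each centred on its mean over the 6 libraries, so that a lower value is more alike. It was 0.42 for the endothelial list, 0.52 for the adipocyte list and 0.69 for the red blood cell list, against 3.03 for fast muscle and 2.17 for slow muscle. The 12 adipocyte genes summed to 2996 to 9409 CPM in vehicle and 16106 to 29968 CPM in rebamipide, with 7 called higher. The 8 endothelial genes summed to 237 to 549 CPM and 1132 to 1667 CPM, with 5 called higher. The part of these lists in the S100a1 rise was not tested. The genes of nearest profile were Prkaca (0.064), Gcsh (0.078) and Aifm1 (0.097), and 887 of 14874 genes lay within 0.5.

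S100b (ENSMUSG00000033208, chromosome 10, 76089687 to 76096993, plus strand) was the other riser and the single member off chromosome 3. S100B is the glial S100 protein, made by Schwann cells in peripheral nerve, and is also found in adipocytes. S100b measured 4.19, 5.08 and 6.20 CPM in vehicle 1, 2 and 3 and 36.1, 78.6 and 70.0 CPM in rebamipide 1, 2 and 3. The lowest rebamipide library was thus well above the highest vehicle library. The mean went from 5.15 ± 1.01 to 61.6 ± 22.5 CPM (SD, n = 3 each), 11.9-fold higher, and the log2 fold change was 3.58 (SE 0.37, edgeR adjusted p = 0.00939), the largest rise among the members. Without rebamipide 3 it was 3.48 (edgeR adjusted p = 0.0212), and the call was lost without vehicle 2, at 3.52 (edgeR adjusted p = 0.0747), and without rebamipide 2, at 3.37 (edgeR adjusted p = 0.0573). DESeq2 called S100a1 and S100b higher in all 6 fits with a library left out.

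Schwann cell markers did not move with S100b. The 10 genes of that list, led by Mbp of the myelin sheath, the factor Egr2 and the periaxin gene Prx, summed to 167, 281 and 402 CPM in vehicle and 206, 116 and 214 CPM in rebamipide. The groups overlapped, the median log2 fold change was -0.90, and edgeR called 0 genes, with 1 at an unadjusted p under 0.05 and 1 called lower by DESeq2. For melanocytes, another known source of S100B, the 7 genes of their list, led by Dct, summed to 1064, 257 and 32.4 CPM in vehicle and 128, 6.98 and 0.687 CPM in rebamipide (0 called by edgeR, 0 at an unadjusted p under 0.05, 1 called lower by DESeq2). Log2 CPM of S100b minus the mean of the Schwann list went from -1.0 ± 0.41 to 3.50 ± 1.03 (SD, n = 3 each), with no overlap. Set against the adipocyte list the same difference went from -5.60 ± 0.49 to -3.91 ± 0.46, again with no overlap, so S100b rose by more than the mean of that list. The brown adipocyte list summed to 214, 225 and 384 CPM in vehicle and 5040, 12960 and 10703 CPM in rebamipide, and its defining gene Ucp1, the uncoupling protein of brown fat, had 0 counts in every vehicle library. The median log2 fold change of this list was 3.99, above the 3.58 of S100b. Of its 8 genes edgeR called 6 higher and 0 lower, and DESeq2 7 higher and 1 lower. The last was Elovl3, an enzyme that lengthens fatty acids, at a log2 fold change of -1.45 (SE 0.42, edgeR adjusted p = 0.0575), with groups that lay apart downwards. Whether these cells carried the S100b reads was not tested.

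The nearest lists to S100b were red blood cell (0.69), endothelial (0.85) and adipocyte (0.93), and the nearest genes were Etfdh (0.093), Hrh2 (0.114) and Suclg1 (0.122). For S100b 284 genes lay within 0.5. Etfdh passes electrons from fatty acid oxidation to the respiratory chain, and Suclg1 is a subunit of a citric acid cycle enzyme. The S100b span shares 1731 bases with Dip2a on the opposite strand, and use of strand in the counting is not given in the sources used here. In the GENCODE M21 annotation of GRCm38 the exons of S100b share 0 bases with other genes.

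**Figure D2:**
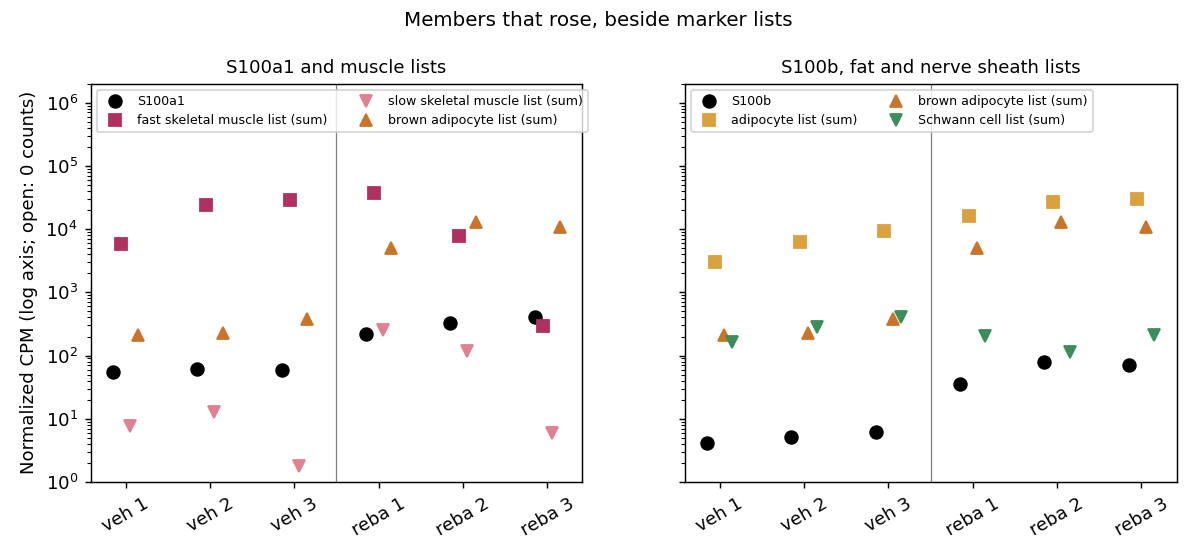
Normalized CPM on a log axis in each library, for S100a1 beside summed muscle and brown adipocyte lists on the left and for S100b beside summed fat and Schwann cell lists on the right, with vehicle left and rebamipide right of the grey line. In rebamipide 3 the fast muscle sum drops to 295 CPM while S100a1 reaches 402 CPM, and the Schwann sums of the groups overlap while S100b does not.

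S100a13, a member of the family outside the 10, lies 42 bases from S100a1 in the table and is transcribed on the other strand (chromosome 3, 90421742 to 90431888). S100A13 takes part in the release of proteins that lack a signal peptide. S100a13 measured 17.2, 27.4 and 36.5 CPM in vehicle and 73.8, 105 and 126 CPM in rebamipide. It also lay apart, and its log2 fold change was 1.91 (SE 0.35, edgeR adjusted p = 0.0178), or 1.73 without rebamipide 3 (edgeR adjusted p = 0.0437). Since both neighbours rose, their start regions are shown. The RefSeq windows on GRCm38.p6, a build other than that of the deposited positions, run from 250 bases before to 50 bases after each start and are printed 5′ to 3′ in the sense of each gene. The starts lie 105 bases apart on opposite strands, so the windows chr3:90514281-90514580 of S100a1 (minus strand) and chr3:90514185-90514484 of S100a13 (plus strand) share 204 bases, which stand in capitals.
S100a1: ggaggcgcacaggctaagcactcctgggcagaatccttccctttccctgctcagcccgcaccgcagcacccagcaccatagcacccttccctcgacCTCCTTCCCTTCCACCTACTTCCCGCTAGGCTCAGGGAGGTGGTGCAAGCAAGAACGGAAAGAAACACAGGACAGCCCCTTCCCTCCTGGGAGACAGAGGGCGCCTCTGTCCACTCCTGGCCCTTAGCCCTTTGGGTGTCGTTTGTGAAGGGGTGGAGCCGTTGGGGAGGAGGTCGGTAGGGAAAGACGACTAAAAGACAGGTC
S100a13: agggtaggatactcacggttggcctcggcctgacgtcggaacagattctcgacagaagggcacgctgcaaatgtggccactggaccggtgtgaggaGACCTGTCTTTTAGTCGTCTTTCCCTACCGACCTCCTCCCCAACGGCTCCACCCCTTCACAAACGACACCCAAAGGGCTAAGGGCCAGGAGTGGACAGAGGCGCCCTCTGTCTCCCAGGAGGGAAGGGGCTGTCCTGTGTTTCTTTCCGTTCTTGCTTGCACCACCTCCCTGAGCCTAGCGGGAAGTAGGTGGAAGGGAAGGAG
The shared stretch holds 7 CG pairs. The S100a1 window holds 11 and the S100a13 window 14, where the median over 32851 promoter windows of mouse genes is 7. Neither window holds TATAAA on either strand, a motif found on either strand in 13.6% of all windows. These are descriptions of the sequence and no factor was measured.

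S100a3 (ENSMUSG00000001021, chromosome 3, 90491966 to 90510009, plus strand) is the hair member, whose protein is citrullinated by PADI3 in the cuticle. S100a3 measured 522, 143 and 3.01 CPM in vehicle 1, 2 and 3 and 12.3, 0.117 and 0 CPM in rebamipide 1, 2 and 3, from 26058, 7038, 141, 375, 3 and 0 counts. The groups overlapped, because vehicle 3 lay below rebamipide 1. The mean was 223 ± 269 CPM in vehicle and 4.16 ± 7.10 CPM in rebamipide (SD, n = 3 each), and the log2 fold change of -5.74 came with an SE of 2.59 (edgeR adjusted p = 0.151). It was -5.15 without rebamipide 3 (edgeR adjusted p = 0.214). Of the 6 fits with a library left out, the gene passed the threshold in that without rebamipide 1 (edgeR adjusted p = 0.0480), where the 2 rebamipide libraries left hold 3 and 0 counts.

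S100a3 was set beside keratins of the hair shaft. The 10 hair shaft keratins tested, led by Krt33a, Krt83 and Krt81, summed to 6933, 3178 and 44.3 CPM in vehicle and 112, 0.156 and 0 CPM in rebamipide, and both S100a3 and this list had the order vehicle 1, vehicle 2, rebamipide 1, vehicle 3 at the top. EdgeR called 0 of the 10, with 4 at an unadjusted p under 0.05 and 1 called lower by DESeq2. Across a 173-fold range among the vehicle libraries, log2 CPM of S100a3 minus the mean of the hair list was between -0.79 and -0.25. In rebamipide 1, 2 and 3 it was 0.44, 1.43 and 0.00, above every vehicle value, although S100a3 had 3 and 0 counts in the last pair. The hair list was its nearest (0.70), and Krt87 (0.489), a hair keratin, Ly6g6g (0.532) and Krt28 (0.552), a keratin of the inner root sheath, were its nearest genes. Padi3 itself measured 522, 263 and 5.13 CPM in vehicle and 14.8, 0 and 0 CPM in rebamipide, with a log2 fold change of -5.73 (SE 2.70, edgeR adjusted p = 0.165), or -5.14 without rebamipide 3 (edgeR adjusted p = 0.228). The span of S100a3 shares 6873 bases with S100a2 and 799 with Gm42674 on the same strand, and in GENCODE M21 4.61% of its 5660 exon bases are shared with other genes.

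S100a14 (ENSMUSG00000042306, chromosome 3, 90434163 to 90436144, plus strand) encodes an S100 protein of epithelial cells with a role in adhesion and migration. S100a14 measured 584, 405 and 298 CPM in vehicle 1, 2 and 3 and 122, 51.1 and 0.0763 CPM in rebamipide 1, 2 and 3. Every rebamipide library lay below every vehicle library, and rebamipide 3 held 2 counts against 13934 to 29132 in vehicle. The mean went from 429 ± 144 to 57.6 ± 61.1 CPM (SD, n = 3 each), but the log2 fold change of -2.89 had an SE of 1.68 and did not pass the test (edgeR adjusted p = 0.241). Without rebamipide 3 it was -2.30 (edgeR adjusted p = 0.0504), where DESeq2 called it lower (DESeq2 adjusted p = 0.000184). Without rebamipide 1 it was -4.06 (edgeR adjusted p = 0.197), where DESeq2 also called it lower (DESeq2 adjusted p = 0.0273). DESeq2 did not call it in the other fits with a library left out.

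S100a16 (ENSMUSG00000074457, chromosome 3, 90444561 to 90450458, plus strand) encodes a widely expressed partner of S100A14. S100a16 measured 441, 274 and 211 CPM in vehicle 1, 2 and 3 and 139, 76.0 and 56.4 CPM in rebamipide 1, 2 and 3. The groups did not overlap, and unlike S100a14 the gene was still well counted in rebamipide 3, at 1478 counts. The mean went from 308 ± 119 to 90.6 ± 43.4 CPM (SD, n = 3 each), 3.41-fold lower, and the log2 fold change was -1.77 (SE 0.45, edgeR adjusted p = 0.0403). It was -1.51 without rebamipide 3 (edgeR adjusted p = 0.0957), and of the 6 fits with a library left out edgeR called S100a16 lower only in that without rebamipide 1. The adjusted p of the other 5 fits was 0.0530 to 0.155 in edgeR. DESeq2 called it lower in all 6, fits that were added after the data were seen.

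Lists of keratinocyte genes were set beside both members. The 7 basal keratinocyte genes, led by Krt5, Krt14 and Krt15, summed to 2513, 4053 and 3469 CPM in vehicle and 1183, 724 and 144 CPM in rebamipide, and 6 of them lay apart downwards, as did 24% of all genes. EdgeR called 0 of the 7, with 2 at an unadjusted p under 0.05 and 2 called lower by DESeq2. The 9 suprabasal genes, led by Krt10, Krt1 and Krtdap, summed to 2063, 6370 and 7585 CPM in vehicle and 1916, 1345 and 40.2 CPM in rebamipide, with 1 called lower. That gene was Cdsn, the corneodesmosome protein, named after its values were seen, at a log2 fold change of -2.01 (SE 0.44, edgeR adjusted p = 0.0281).

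The S100a14 and S100a16 profiles parted in the library without basal keratins. Log2 CPM of S100a14 minus the mean of the basal list was 0.04, -0.39 and -2.84 in rebamipide 1, 2 and 3. For S100a16 the same difference was 0.23, 0.18 and 5.93. S100a14 was nearest to the suprabasal list (0.95), with the epithelial genes Calml3 (0.111), Esrp1 (0.138) and Lypd5 (0.191) as nearest genes and 18 genes within 0.5. S100a16 was nearest to the fibroblast list (0.69), with Sass6 (0.087), Kazn (0.091) and Frmd4b (0.092) as nearest genes and 788 within 0.5. The part of the keratinocyte lists in the fall of S100a16 was not tested.

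**Figure D3:**
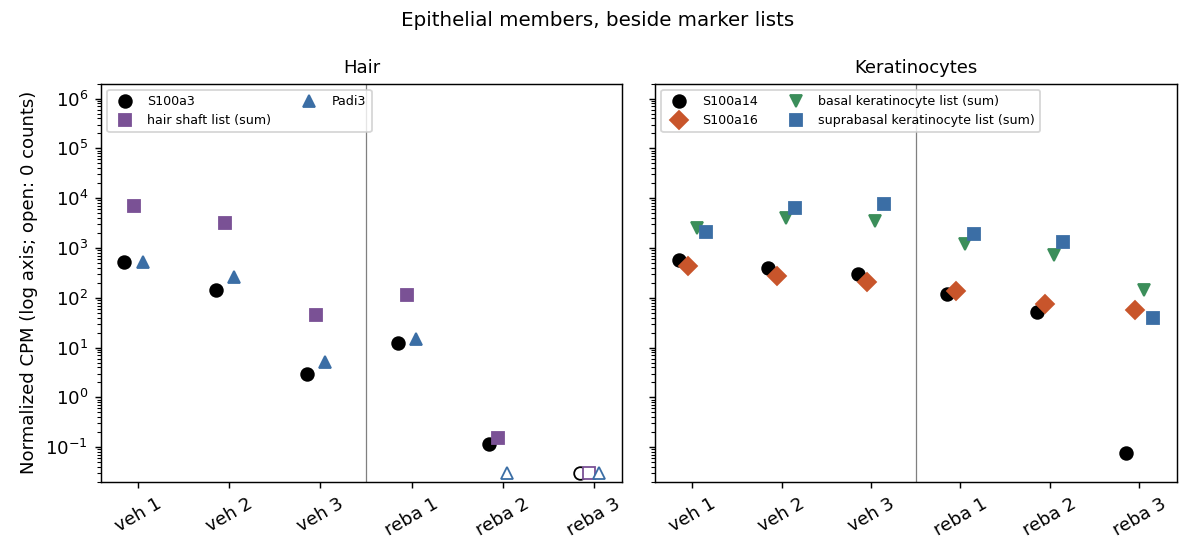
Normalized CPM on a log axis in each library, for S100a3, Padi3 and the summed hair shaft list on the left and for S100a14, S100a16 and the summed keratinocyte lists on the right; open symbols stand for 0 counts. S100a3 and the hair list share the order of their 4 highest libraries, and in rebamipide 3 S100a14 drops to 0.0763 CPM while S100a16 stays at 56.4 CPM.

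S100a8 (ENSMUSG00000056054, chromosome 3, 90576285 to 90577342, plus strand) and S100a9 (ENSMUSG00000056071, chromosome 3, 90599939 to 90603028, minus strand) encode the subunits of calprotectin, a metal-binding heterodimer stored in neutrophils and induced in damaged epidermis. Both were low in this skin. S100a8 measured 3.08, 4.47 and 2.52 CPM in vehicle 1, 2 and 3 and 0.988, 1.44 and 1.07 CPM in rebamipide 1, 2 and 3, from 118 to 220 and 28 to 37 counts. Every rebamipide library lay below every vehicle library. The mean went from 3.36 ± 1.00 to 1.17 ± 0.242 CPM (SD, n = 3 each), 2.88-fold lower, and the log2 fold change was -1.52 (SE 0.39, edgeR adjusted p = 0.0427). Without rebamipide 3 it was -1.46 (edgeR adjusted p = 0.124). EdgeR called S100a8 in 0 of the 6 fits with a library left out (adjusted p = 0.0538 to 0.160), while DESeq2 called it lower in all 6.

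For its partner S100a9 the level was 0.701, 3.29 and 3.42 CPM in vehicle 1, 2 and 3 and 2.44, 1.48 and 2.79 CPM in rebamipide 1, 2 and 3. The groups overlapped, with vehicle 1 the lowest of all libraries. The S100a9 mean was 2.47 ± 1.53 CPM in vehicle and 2.23 ± 0.676 CPM in rebamipide (SD, n = 3 each), with a log2 fold change of -0.14 (SE 0.65, edgeR adjusted p = 0.883). Its sign turned in some of the alternatives, and without rebamipide 3 the value was -0.32 (edgeR adjusted p = 0.805).

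Per kilobase of gene length, the log2 ratio of S100a8 to S100a9 was 1.73, 0.03 and -0.85 in vehicle 1, 2 and 3 and -1.71, -0.45 and -1.79 in rebamipide 1, 2 and 3. The ratio spread widely within vehicle, and vehicle 3 fell below rebamipide 2. The difference between the group means was -1.62 on the log2 scale (two-sided exact permutation test, p = 0.2, where 0.1 is the smallest value that 3 against 3 can give). Without rebamipide 3 the difference was -1.38.

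The leukocyte lists overlapped between the groups. The 10 neutrophil genes, led by Mmp9, Cxcr2 and Csf3r, summed to 6.01, 23.3 and 33.9 CPM in vehicle and 23.1, 10.8 and 7.90 CPM in rebamipide. Ly6g, the defining neutrophil surface marker in mice, had 0 counts in every vehicle library, and Itgb2l had 0 counts in every rebamipide library. Of the 5 neutrophil genes tested edgeR called 0, with 1 at an unadjusted p under 0.05 and 1 called lower by DESeq2. The 10 monocyte and macrophage genes summed to 554 to 1231 CPM in vehicle and 313 to 1176 CPM in rebamipide, and edgeR called 0, with 1 at an unadjusted p under 0.05 and 1 called lower by DESeq2. For 6 genes of leukocytes in general, led by Laptm5, the sums were 85.4 to 236 CPM and 44.6 to 205 CPM, with 0 called by edgeR, 1 at an unadjusted p under 0.05 and 1 called lower by DESeq2. The 4 activated keratinocyte genes, led by Krt16, summed to 85.8, 132 and 256 CPM in vehicle and 66.5, 50.3 and 0 CPM in rebamipide, where S100a8 was still at 1.07 CPM in rebamipide 3. The nearest list was that of Schwann cells for S100a8 (0.71), with the neutrophil list next (0.72), and that of neutrophils for S100a9 (0.65). The nearest genes were Psd3 (0.096), Rapgef4 (0.116) and Cast (0.151) for S100a8 and Galnt15 (0.136), Slc22a4 (0.217) and AU021092 (0.247) for S100a9. Within 0.5 lay 1082 genes for S100a8 and 220 for S100a9.

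The start regions of the calprotectin pair are shown because both hold the same motif. TATAAA stands in capitals in the RefSeq windows (GRCm38.p6) of S100a8, chr3:90668821-90669120, plus strand, and of S100a9, chr3:90695672-90695971, minus strand.
S100a8: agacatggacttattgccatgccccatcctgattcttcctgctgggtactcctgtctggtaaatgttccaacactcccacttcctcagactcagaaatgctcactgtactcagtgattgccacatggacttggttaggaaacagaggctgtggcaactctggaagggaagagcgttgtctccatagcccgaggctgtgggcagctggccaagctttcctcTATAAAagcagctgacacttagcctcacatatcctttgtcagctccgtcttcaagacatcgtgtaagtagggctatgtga
S100a9: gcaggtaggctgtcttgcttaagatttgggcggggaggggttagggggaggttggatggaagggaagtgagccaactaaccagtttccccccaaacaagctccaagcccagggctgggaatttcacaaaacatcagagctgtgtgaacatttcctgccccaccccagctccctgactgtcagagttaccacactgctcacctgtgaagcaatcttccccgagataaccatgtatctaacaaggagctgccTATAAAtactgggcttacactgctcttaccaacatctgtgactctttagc
The motif begins 30 bases before the annotated start of S100a8 and 0 bases before that of S100a9. RefSeq windows were found for 8 of the 10 members, and TATAAA was also present on either strand for S100a4 and in a window of S100a3, against 13.6% of all 32851 windows.

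S100a4 (ENSMUSG00000001020, chromosome 3, 90511078 to 90513352, plus strand), known as the fibroblast-specific protein that binds non-muscle myosin, was almost uncounted. S100a4 had 18, 21 and 32 counts in vehicle 1, 2 and 3 and 18, 2 and 0 counts in rebamipide 1, 2 and 3. Rebamipide 1 lay among the vehicle libraries and the other two lay at or under 3 counts, a floor of 0.0752 to 0.0917 CPM before TMM. The log2 fold change was -1.09 (SE 1.14, edgeR adjusted p = 0.50), and -0.52 without rebamipide 3 (edgeR adjusted p = 0.739). Without rebamipide 1 it was -3.55 (edgeR adjusted p = 0.0630), and DESeq2 called it lower there (DESeq2 adjusted p = 0.0135). These counts are uncertain, since the span of S100a4 shares 2115 bases on the same strand with Gm42674, which held 0 counts in every library, and in GENCODE M21 51.7% of the S100a4 exon bases are shared with that gene. S100a4 was nearest to the fibroblast list (0.35), with Trim30c (0.138), Adra2a (0.183) and Pdgfrl (0.189) as nearest genes and 218 within 0.5. In vehicle S100a4 minus the mean of the fibroblast list was -9.77 ± 0.15 in log2 CPM (SD, n = 3).

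S100a6 (ENSMUSG00000001025, chromosome 3, 90520189 to 90531488, plus strand) encodes calcyclin, a protein of proliferating and stromal cells that binds annexins and CACYBP. S100a6 measured 218, 215 and 199 CPM in vehicle 1, 2 and 3 and 127, 48.2 and 28.7 CPM in rebamipide 1, 2 and 3. The vehicle values were within 1.10-fold of each other, the rebamipide values spread 4.43-fold, and the groups lay apart. The mean went from 211 ± 10.5 to 68.0 ± 52.1 CPM (SD, n = 3 each), and the log2 fold change of -1.63 (SE 0.55) did not pass the test (edgeR adjusted p = 0.0786). It was -1.26 without rebamipide 3 (edgeR adjusted p = 0.127) and -2.45 without rebamipide 1, where it passed (edgeR adjusted p = 0.00810). DESeq2 with all libraries also called it lower (DESeq2 adjusted p = 0.0186), and it kept that call in 3 of its 6 fits with a library left out. The DESeq2 adjusted p was 0.0582 without vehicle 1, 0.0553 without vehicle 3 and 0.132 without rebamipide 2.

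The S100a6 profile was nearest to that of the fibroblast list (0.38). The 10 genes of that list, led by Col3a1, Col1a2 and Col1a1, summed to 12465, 14613 and 19012 CPM in vehicle and 15971, 3770 and 2002 CPM in rebamipide. EdgeR called 0 of them, with 2 at an unadjusted p under 0.05 and 2 called lower by DESeq2, and their median log2 fold change was -1.21. Log2 CPM of S100a6 minus the list mean went from -1.13 ± 0.52 to -1.54 ± 0.19 (SD, n = 3 each), and the groups overlapped. The nearest genes were Arhgef10l (0.107), Prkcz (0.134) and Ctsc (0.137), with 622 genes within 0.5.

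S100a10 (ENSMUSG00000041959, chromosome 3, 93462387 to 93471950, plus strand) encodes p11, the S100 protein that no longer needs calcium and forms a tetramer with annexin A2. S100a10 measured 179.6, 212 and 321 CPM in vehicle 1, 2 and 3 and 229.6, 134 and 115 CPM in rebamipide 1, 2 and 3. The groups overlapped through rebamipide 1. The mean was 238 ± 74.1 CPM in vehicle and 159.7 ± 61.3 CPM in rebamipide (SD, n = 3 each), with a log2 fold change of -0.57 (SE 0.36, edgeR adjusted p = 0.273) and of -0.38 without rebamipide 3 (edgeR adjusted p = 0.561). Its partner Anxa2 measured 554, 646 and 854 CPM in vehicle and 595, 341 and 229 CPM in rebamipide, with a log2 fold change of -0.82 (SE 0.41, edgeR adjusted p = 0.182), or -0.54 without rebamipide 3 (edgeR adjusted p = 0.395). The 6 libraries stood in the same order for both genes, apart from vehicle 2 and rebamipide 1, which changed places. S100a10 was nearest to the neutrophil list (0.16), a list of low counts whose 10 genes summed to at most 33.9 CPM in any library. The monocyte and macrophage list (0.36) and the Schwann cell list (0.38) came next. The nearest genes to S100a10 were Trpv2 (0.072), Xbp1 (0.098) and the family member S100a11 (0.103), with 2285 genes within 0.5.

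**Figure D4:**
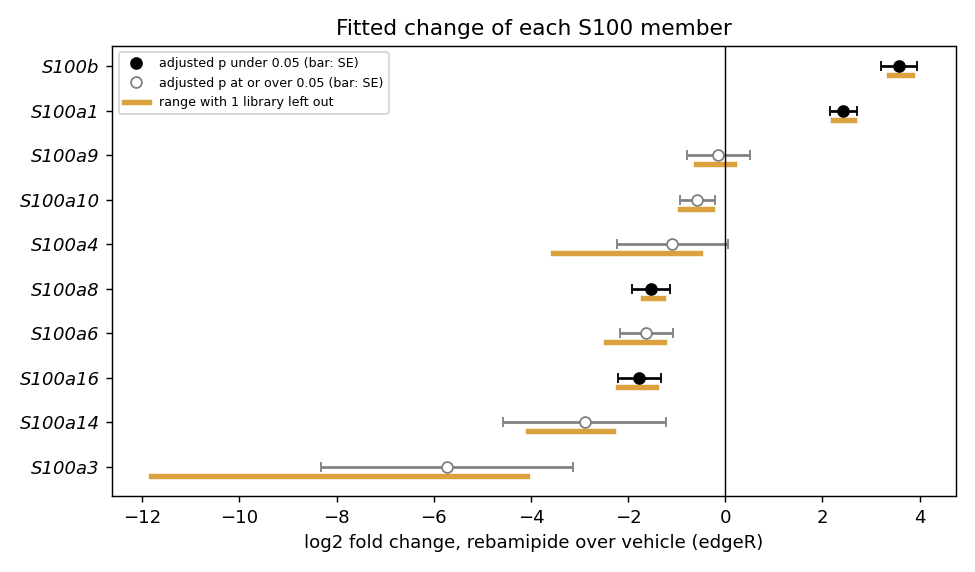
Log2 fold change of each S100 member, rebamipide over vehicle, from edgeR with bars for the SE; filled points passed an adjusted p of 0.05 and the yellow line spans the values with 1 of the 6 libraries left out. S100b at 3.58 and S100a1 at 2.43 have narrow ranges, while S100a3 at -5.74 has a range that reaches -11.8.

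Levels of different members were compared per kilobase of gene length, as normalized CPM per kb (mean ± SD, n = 3). In vehicle the order began with S100a14 at 248 ± 83.5, S100a10 at 196 ± 61.2, S100a16 at 191 ± 73.7 and S100a6 at 154 ± 7.70. Neighbours in this order overlapped, while S100a14 lay above S100a6 in every vehicle library. S100a1 at 84.7 ± 4.26 and S100a3 at 83.4 ± 101 followed, the latter spread over the whole scale. S100a8 at 4.84 ± 1.44, S100a9 at 4.73 ± 2.94 and S100b at 3.47 ± 0.68 formed a low group within their spread, and S100a4 was last at 0.840 ± 0.293.

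In rebamipide S100a1 led at 456 ± 134 CPM per kb and ranked first in each of the 3 libraries, where it had ranked 5 or 6 in the vehicle libraries. S100a10 came next in each library, at 132 ± 50.6. S100a16 at 56.0 ± 26.8, S100a6 at 49.7 ± 38.1, S100b at 41.5 ± 15.1 and S100a14 at 33.4 ± 35.4 overlapped, and S100b had overtaken S100a14 in every rebamipide library except rebamipide 1. S100a9 at 4.28 ± 1.29, S100a8 at 1.68 ± 0.349, S100a3 at 1.56 ± 2.66 and S100a4 at 0.383 ± 0.552 were low.

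Of 9 further S100 genes listed beside the members, 8 were in the table, 3 had enough counts to be tested and 1, S100a13, was called higher. S100a11, an S100 protein of keratinocytes and many other cells that binds annexin A1, measured 169, 232 and 331 CPM in vehicle and 228, 157 and 114 CPM in rebamipide, with a log2 fold change of -0.55 (SE 0.36, edgeR adjusted p = 0.290), or -0.34 without rebamipide 3 (edgeR adjusted p = 0.595). S100a7a, the mouse counterpart of the psoriasins of stressed epidermis, had 3303, 2498 and 53 counts in vehicle and 52, 8 and 8 in rebamipide. Its groups overlapped in CPM, with vehicle 3 at 1.13 and rebamipide 1 at 1.71, and its log2 fold change was -5.64 (SE 1.58, edgeR adjusted p = 0.0518), or -5.25 without rebamipide 3 (edgeR adjusted p = 0.115). DESeq2 called it lower (DESeq2 adjusted p = 2.63e-05). S100a7l2 was counted mainly in vehicle 3, at 368 counts, with at most 7 in any other library. S100a2 reached 15 counts in vehicle 1, S100z 4, S100a5 3 and S100g 2, and none of these was tested.

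The fused-type S100 genes lie near the others on chromosome 3 and encode large epidermal and hair proteins that begin with an S100 domain. All 7 were tested, with a median log2 fold change of -3.41 against -0.17 for all genes. EdgeR called 0 of them, with 1 at an unadjusted p under 0.05, while DESeq2 called 2 lower, against 2570 of 16109 over all genes. Their summed level was 8918, 7481 and 1005 CPM in vehicle and 406, 162 and 0.229 CPM in rebamipide, so the groups lay apart over a very wide range. Trichohyalin, Tchh, the protein of the inner root sheath, had 8351, 6070 and 104 CPM in vehicle and 249, 0.507 and 0.229 CPM in rebamipide (log2 fold change -5.86, SE 2.94, edgeR adjusted p = 0.185). It made up most of the sum in vehicle 1, vehicle 2 and rebamipide 1, and all of it in rebamipide 3, but not in vehicle 3, where Flg2 had 472 CPM, nor in rebamipide 2. The smallest p was that of Tchhl1, at a log2 fold change of -7.32 (SE 2.27, edgeR adjusted p = 0.0660). Crnn (-6.04, SE 2.54), Hrnr (-3.41, SE 1.76) and Rptn (-2.23, SE 1.42) had edgeR adjusted p-values of 0.132, 0.196 and 0.277. Hrnr, Rptn, Flg and Flg2 all had 0 counts in rebamipide 3. Without that library the log2 fold changes of the 7 genes ran from -6.74 for Tchhl1 to -1.40 for Flg. None passed in edgeR (adjusted p from 0.115 to 0.241). DESeq2 called 4 lower there, against 1875 of 15728 over all genes.

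The partners and receptors of S100 proteins were 18 genes, all tested, with a median log2 fold change of -0.28. EdgeR called 3 higher and 2 lower, shares near those of all genes (14.1% higher and 6.51% lower), so the counts set the partners apart from other genes in neither direction. Anxa6, an annexin of membranes bound by several S100 proteins, went from 161 ± 51.2 to 472 ± 22.4 CPM (SD, n = 3 each), a log2 fold change of 1.55 (SE 0.30, edgeR adjusted p = 0.0200). Bsg, the receptor basigin that binds S100A9, had a log2 fold change of 0.91 (SE 0.21, edgeR adjusted p = 0.0313). Ppp5c, a phosphatase activated by S100A1, had a log2 fold change of 0.85 (SE 0.21, edgeR adjusted p = 0.0395). When counts were scaled by the library total alone, Bsg and Ppp5c were at 0.30 and 0.21 and were no longer called (edgeR adjusted p = 0.254 and 0.406).

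Both partners that fell are binding targets of S100 proteins. Ahnak, the giant scaffold that binds S100A10 with annexin A2, went from 1507 ± 212 to 582 ± 85.5 CPM (SD, n = 3 each), a log2 fold change of -1.37 (SE 0.26, edgeR adjusted p = 0.0206). Anxa1, the ligand of S100A11, went from 666 ± 20.5 to 133 ± 94.4 CPM (SD, n = 3 each), a log2 fold change of -2.33 (SE 0.62, edgeR adjusted p = 0.0463). Without rebamipide 3 edgeR called 0 partners higher, with Anxa6 at 1.54 (edgeR adjusted p = 0.0521), and 1 lower, Anxa1 at -1.88 (edgeR adjusted p = 0.0362). Ahnak was then at -1.26, Bsg at 0.85 and Ppp5c at 0.77 (edgeR adjusted p = 0.0751, 0.108 and 0.120). Of the 6 fits with a library left out, edgeR called Anxa6 and Ahnak in 3 each and Bsg, Ppp5c and Anxa1 in 2 each. The Anxa1 call was lost without vehicle 1, vehicle 2, vehicle 3 or rebamipide 2 (edgeR adjusted p = 0.10, 0.138, 0.0918 and 0.159), with no filter (edgeR adjusted p = 0.0541) and with the replicate block (edgeR adjusted p = 0.0682). The Ppp5c call was also lost with the block (edgeR adjusted p = 0.0975).

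Neighbours in the S100 cluster differed in direction. Of the 18 S100 genes, 15 lie on chromosome 3, and 12 of them follow each other from S100a1 to S100a9 over 184688 bases with 1 other gene between. S100a1 and S100a13 at its proximal end were called higher, the next neighbours S100a14 and S100a16 were lower with groups apart, and S100a3, S100a4 and S100a6 further on had negative log2 fold changes. S100a8 was called lower and S100a9, the last of the row, was not called.

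**Figure D5:**
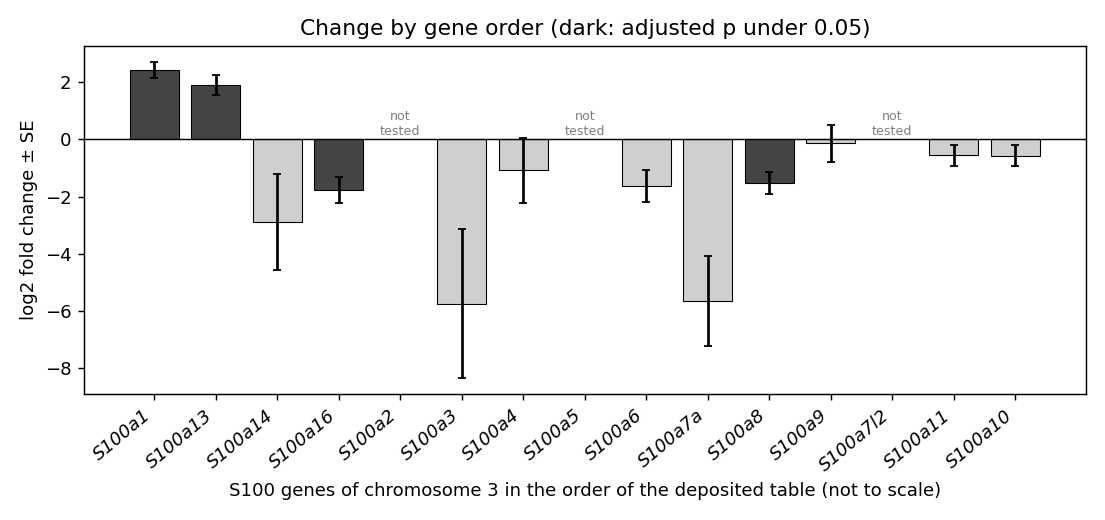
Log2 fold change with SE for the S100 genes of chromosome 3 in the order of the table, not to scale, with dark bars for genes that passed an adjusted p of 0.05. Positive bars stand at S100a1 and S100a13 only, at 2.43 and 1.91, and the deepest bars are S100a3 at -5.74 and S100a7a at -5.64, neither of which passed.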

How the data were processed

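RNA-seq of mouse dorsal skin was analysed in 6 libraries, 3 vehicle and 3 rebamipide, each from its own mouse. Per the submitters' processing notes, reads were handled with fastp 0.22.0, HISAT2 2.1.0 and HTSeq 0.9.1 on GRCm39. The annotation release and the use of strand are not given in the sources used here. The authors deposited raw read counts per gene, as whole numbers without normalization, and FPKM values (counts scaled by gene length and library total), in a single table with positions and annotations. All 12 columns of values were matched to libraries by name.

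Counts were analysed in R 4.3.3 with edgeR 4.0.16 (TMM, filterByExpr, quasi-likelihood test, Benjamini-Hochberg adjustment over 14875 genes). The SE is the log2 fold change divided by the square root of F. Marker lists are summed as normalized CPM, or averaged as log2 CPM with a prior count of 2. Differences of a member from a list and profile likeness are descriptions without a test. The edgeR p-values set the difference between groups against the spread between mice within a group, estimated with information from all genes. Replicates differed by more than counting noise (chi-square per degree of freedom 79.1 to 714).

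Depth was 32709801 to 39915276 counts per library, and 3 counts were taken as the floor. Alternatives were DESeq2 1.42.0, RLE size factors, total counts alone, no filter, a minimum of 10 counts in every sample, limma 3.58.1 on log2(FPKM + 1) with the FPKM deposited by the authors, the replicate number as a block, each library left out, and the study's thresholds (unadjusted p under 0.05 and log2 fold change beyond 1). DESeq2 with each library left out was added after seeing the data. On simulated counts with 200 genes changed 4-fold, edgeR recovered 96% with 9 false calls among 15047 genes. DESeq2 recovered 97% with 23 false calls among 17835, and limma 62.5% with 2 among 17706. Whether these values hold for the deposited counts was not tested. Sequences are from RefSeq tables (GRCm38.p6).

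The members and all lists were chosen with earlier results of these data known. Named are the members, the other S100 genes with reads, up to 5 genes of smallest p in the fused-type and partner lists, the 3 nearest genes of each member, and the leading or zero genes of each marker list. S100p and Krt85 were not used here, and a gene of the Schwann cell list is not reported here and was left out of that list's values.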

Additional observations from a re-analysis of the deposited data

How the results depend on the processing

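Of the members, 9 kept the direction of their fold change under every alternative in which they were tested. S100a9 turned, at 0.077 with the replicate block, between -0.61 and 0.17 with a library left out in edgeR and between -0.59 and 0.19 in DESeq2. Whether the replicate numbers pair the mice is not given in the sources used here. The deviations of same-numbered libraries correlated at -0.016, -0.038 and 0.003. None of the vehicle libraries was closest to the rebamipide library of its own number. With 3 libraries per group these values show no pairing but cannot exclude it. With the replicate block, S100a8 had an adjusted p of 0.0750, S100a3 passed the test at -7.50 (edgeR adjusted p = 0.0396), and the partners had 1 lower call.

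The choice of scaling and test moved the counts of calls and the size of the changes. TMM factors were 1.21 to 1.28 in vehicle and 0.746 to 0.929 in rebamipide. With total counts alone S100a1 was at 1.78, S100b at 2.92 and S100a13 at 1.28. All of them stayed called (edgeR adjusted p = 0.00874, 0.00847 and 0.0275). Scaling by total counts alone shifted the median log2 fold change of all genes from -0.17 to -0.78 and gave 1258 higher and 3752 lower genes, against 2093 and 968. The partners then had 1 higher and 4 lower calls and the other S100 genes 1 lower. S100a6 passed under total counts alone (edgeR adjusted p = 0.0474), under limma on FPKM (limma adjusted p = 0.0307) and under the study's thresholds. DESeq2 called 2570 genes lower, with 1 other S100 gene and 2 fused-type genes lower, and RLE factors called 1 other S100 gene lower. Limma on FPKM gave 1344 higher and 4248 lower genes, and 1 higher and 6 lower partners. Without a filter the partners had 1 lower call. A minimum of 10 counts in every sample left S100a3, S100a14 and S100a4 untested and gave 1512 lower genes. The study's thresholds gave 2161 lower genes, 1 other S100 and 1 fused-type gene lower and 1 partner higher.

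With a library left out, edgeR called 0 to 2810 genes higher and 0 to 1971 lower, with 0 to 2 members higher and 0 to 3 lower, 0 to 1 other S100 genes in either direction, 0 to 1 fused-type genes lower, and 0 to 3 partners higher and 0 to 4 lower. Without vehicle 2 it called 0 genes, although 4116 had an unadjusted p under 0.05 and DESeq2 called 4785. Without rebamipide 2 it called 1 gene, with 4062 and 3450. DESeq2 with a library left out called 1961 to 3626 genes higher and 1489 to 4251 lower, 2 members higher and 2 to 7 lower, 1 to 2 other S100 genes lower, 0 to 4 fused-type genes lower, and 2 to 4 partners higher and 2 to 6 lower. The difference in the S100a8 to S100a9 ratio ran from -2.20 to -0.91. The cause of these shifts was not tested. S100a4, S100a8 and S100a9 had at most 220 counts in any library, and rebamipide 3 held few or 0 counts of S100a3 and S100a14.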
